A study of Mus musculus with 24 samples.

Results

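The ABC transporters are the proteins of the ATP-binding cassette superfamily, and their genes were followed here across the livers of 24 mice. Members were the array's gene probes whose gene name was Abc, a subfamily letter from a to g, a number and at most 1 further letter. This rule found 111 of 56605 probes, which belong to 50 genes. Of these, 43 ABC genes passed the filter on dim probes, among 21331 genes of the array that did, and 7 did not. The rule used names and no measured value.

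The mice were male C57Bl/6J and had free access to a standard diet. Going by the series title, hepatocytes of LWT mice expressed the nuclear receptor PPARα and those of LKO mice lacked it. Each genotype was split into 6 mice given vehicle and 6 given CL316243, which activates the beta3 adrenergic receptor. The dose was 3 mg/kg by gavage at Zeitgeber time 10 h (ZT, hours after lights on) in 0.5% carboxymethyl cellulose, which the vehicle groups received alone, and all livers were taken at ZT 16 h. The design asks what beta3 adrenergic activation does to liver expression with and without hepatocyte PPARα. The Cre driver, the alleles behind LKO, the genotype of the LWT mice beyond that name and the ages are not given in the sources used here.

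ABC transporters use ATP to move lipids, sterols, bile acids, drugs or peptides across membranes. In the hepatocyte, one set sits in the canalicular membrane and secretes the components of bile, another sits in the sinusoidal membrane and exports conjugates to blood, and others serve peroxisomes, mitochondria and lysosomes. PPARα is activated by fatty acids and controls many genes of fatty acid oxidation, and the peroxisomal members import the fatty acyl chains that peroxisomes oxidise. Members of subfamilies E and F have the ATP-binding domains but do not transport, and act in ribosome recycling and translation.

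Each mouse gave 1 array, on 3 slides that each held 2 mice of every group, and between 26985 and 34202 of 56605 probes per array were well above background. The Ppara probe lay at 5.48 to 5.95 in LWT vehicle and 4.82 to 5.20 in LKO vehicle, and at 5.71 to 6.44 and 3.07 to 4.87 under CL316243, with LKO below LWT without overlap in both treatments. These are log2 levels, the log2 of the processed intensity minus the 75th percentile of the array, and the same scale is used throughout. Whether that probe lies in the deleted part is not given in the sources used here. All 8 hepatocyte markers were well above background in every group. One liver, LKO CL316243 replicate 3, had a mean correlation of 0.9717 with the others of its group, where the other 23 arrays lay between 0.9829 and 0.9923. In bulk tissue, fewer cells of a type and less RNA per cell cannot be told apart.

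With CL316243, 24 of the 43 ABC genes changed in LWT livers, 5 upward and 19 downward, where 38.3% of all genes tested were called, 18.6% upward and 19.7% downward. In LKO livers 15 changed, 4 upward and 11 downward, where 40.3% of all genes were called, 21% upward and 19.3% downward. A gene was called when the adjusted p of the limma fit over all genes (Benjamini-Hochberg) was under 0.05. The median change of the 43 genes was -0.22 in LWT and -0.20 in LKO on the log2 scale, beside 0.00 and 0.03 over all genes. Among the 19 genes that fell in LWT were all 11 that fell in LKO, and 2 genes, Abcb4 and Abcc5, rose in both. No ABC gene was called in opposite directions, and 17 were called in neither genotype. The shares of all genes called in both genotypes, in opposite directions or in neither were not computed. These counts are therefore not read as particular to ABC genes. Vehicle and CL316243 mice did not overlap for 11 of the 43 genes in LWT and 7 in LKO, where 20.4% and 20.9% of all genes did not. The effects in the genotypes rest on separate mice. The difference between these effects (the interaction) was called for 2 of the 43 ABC genes, or 4.65%, against 5.42% of all genes.

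**Figure D1:**
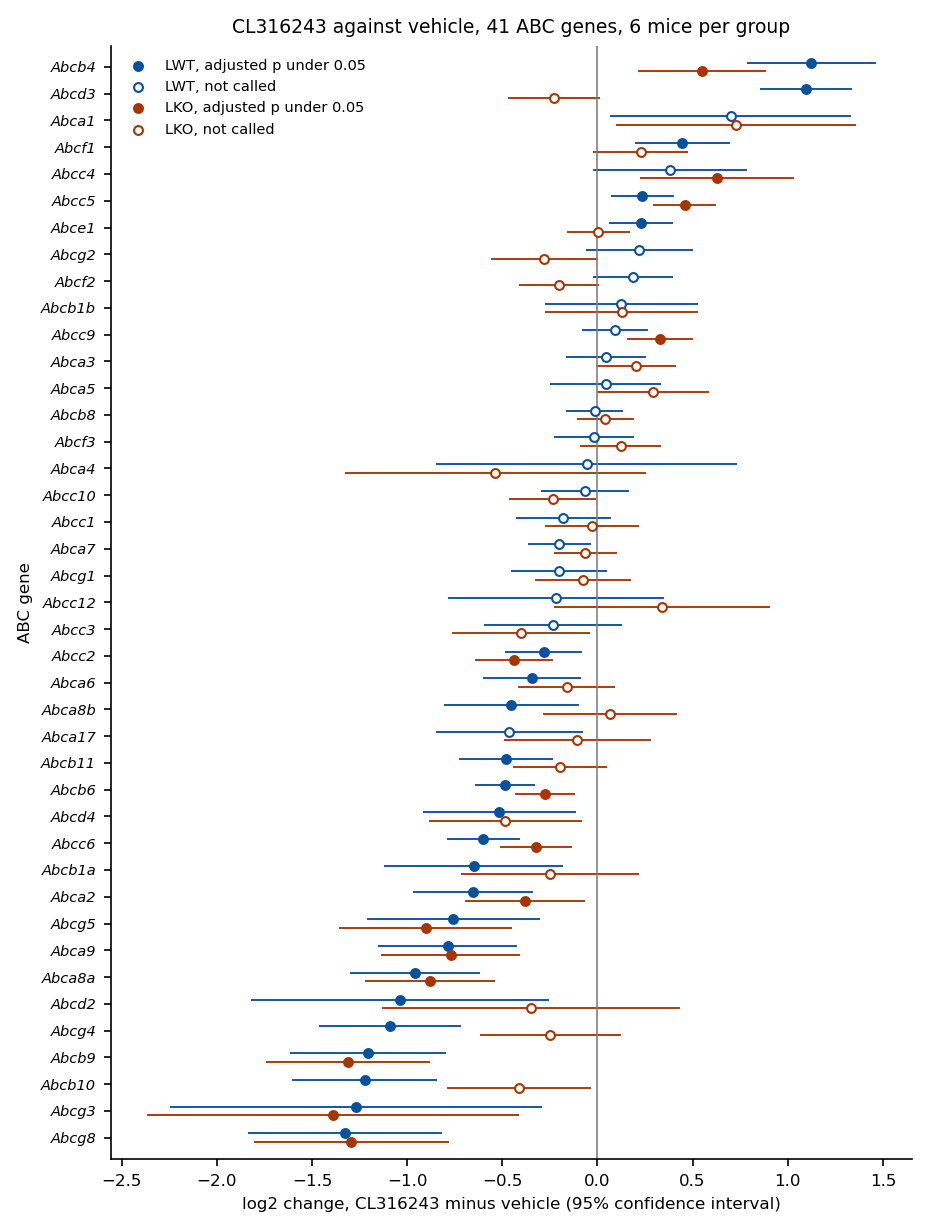
Log2 change with CL316243 against vehicle (x axis) for 41 of the 43 ABC genes (y axis, ordered by the change in LWT), in LWT (blue) and LKO (orange), 6 mice per group. Points are fitted changes, lines are 95% confidence intervals, and filled points are called; Abcd3 lies at 1.10 in LWT and -0.23 in LKO, while Abcg8 lies at -1.33 and -1.29.

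Of the peroxisomal members, Abcd3 and Abcd2 differed between genotypes. Abcd3 (PMP70; probe at chr3:121461892-121461951, minus strand, in the file's mm9 positions), which carries branched and long-chain acyl-CoA into peroxisomes, rose with CL316243 in LWT and not in LKO. Its levels in LWT were 6.45 to 7.17 under vehicle (median 6.85) and 7.57 to 8.09 under CL316243 (median 7.96), and the groups did not overlap. In LKO they were 6.25 to 6.58 (median 6.42) and 5.83 to 6.48 (median 6.21), and these groups overlapped. The change was 1.10 ± 0.12 (log2, SE, n = 6 per group) in LWT, a 2.14-fold rise with limma adjusted p = 2.2e-07, and -0.23 ± 0.12 in LKO (adjusted p = 0.13). The difference between these effects was -1.32 ± 0.16 (adjusted p = 1.8e-05), in a comparison where 5.42% of all genes were called, 2.25% higher and 3.17% lower. Within single slides, with 2 mice per group, the rise in LWT was 0.93 to 1.23 and the difference between effects was -1.52 to -1.04.

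The bases before the upstream transcription start of Abcd3 are shown because the CL316243 effect on this member differed between genotypes. They lie at chr3:121815303-121815552 of GRCm38.p6 on the minus strand, 5′ to 3′, per RefSeq, and hold no match to the motifs searched, so no base is in capitals.
Abcd3: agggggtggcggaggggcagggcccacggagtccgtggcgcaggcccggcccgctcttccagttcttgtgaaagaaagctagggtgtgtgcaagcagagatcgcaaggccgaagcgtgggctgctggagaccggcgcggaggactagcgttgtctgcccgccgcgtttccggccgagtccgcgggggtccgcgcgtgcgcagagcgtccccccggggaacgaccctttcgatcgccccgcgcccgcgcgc

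Abcd2 (ALDRP), a peroxisomal importer that prefers unsaturated and polyunsaturated acyl-CoA, was dim and lower in LKO. It passed the filter through the LWT groups alone, where it was higher, so its calls between genotypes are no independent support. Under vehicle it was well above background on 6 of 6 LWT arrays and 2 of 6 LKO arrays, and under CL316243 on 4 and 0. Its levels were -3.47 to -1.78 (median -3.02) in LWT vehicle and -4.63 to -2.62 (median -3.98) in LWT CL316243. In LKO they were -6.36 to -4.57 (median -5.41) and -6.52 to -4.63 (median -5.75), and LKO did not overlap LWT under vehicle. Under vehicle the fitted difference between genotypes was -2.56 ± 0.38 (adjusted p = 0.00030), and Abcd2 was the only ABC gene called there, where 1.16% of all genes were called, 0.398% higher and 0.764% lower. Since 4 of the 6 LKO arrays were not well above background, this is a fitted value and no measured fold. It was -0.82 (adjusted p = 0.00021) with the normexp background correction and -1.10 with the authors' deposited table. Under CL316243 an approximate bound put Abcd2 1.69-fold lower in LKO than in LWT (fit adjusted p = 0.0011). That bound takes, on each LKO array, the higher of the probe's own signal and the lowest signal well above background. It takes the own signal of all 6 LWT arrays, of which 4 were well above background, so it is no strict minimum. The bound holds for the processed intensity only, since the fitted difference under CL316243 was -0.40 with normexp and -0.60 with the authors' deposited table. In LWT it fell by 1.04 ± 0.38 with CL316243 (adjusted p = 0.034), with overlapping groups, and the call was lost without any 1 of 6 LWT arrays, at adjusted p values of 0.053 to 0.092. Those were LWT CL316243 replicates 1, 2, 3 and 5 and LWT vehicle replicates 2 and 3. It was lost too without the filter on dim probes (adjusted p = 0.063), and the change in LWT was -0.35 with normexp and -0.56 with the authors' deposited table, both called.

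**Figure D2:**
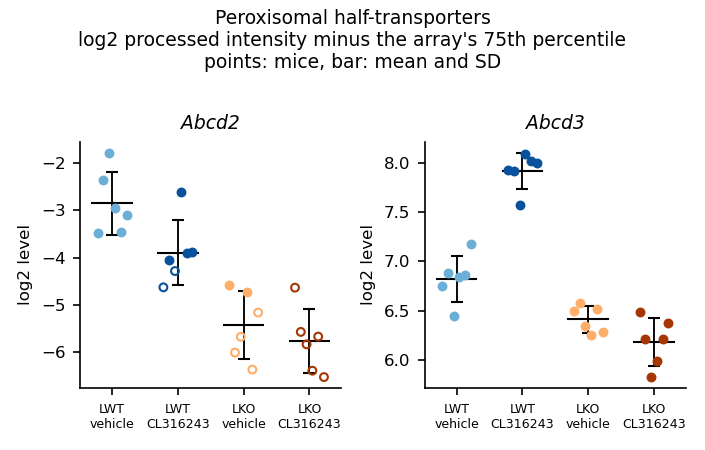
Log2 level (y axis) of the peroxisomal members Abcd2 and Abcd3 in each of the 4 groups (x axis), 1 point per mouse with the mean and SD of 6; open points were not well above background. Abcd3 is highest in the LWT CL316243 column, at 7.57 to 8.09, and Abcd2 is low in both LKO columns.

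Genes around these importers moved in the same comparison. Of 17 tested genes for peroxisomal fatty acid import and oxidation that are not ABC genes, 14 rose and 1 fell in LWT, and 1 rose and 8 fell in LKO. That is 88.2% and 52.9% of the list, against 38.3% and 40.3% of all genes. The median change of the 17 was 0.54 in LWT and -0.34 in LKO. Ehhadh, the bifunctional enzyme of peroxisomal beta-oxidation, changed by 3.97 in LWT and -0.80 in LKO. Crot, which makes carnitine esters of shortened acyl chains for export, and Acot8, a peroxisomal thioesterase, rose by 2.23 and 1.38 in LWT. Their changes in LKO were 0.37 and -0.03, neither of them called. In the interaction 11 of the 17 were called lower and none higher, where 3.17% and 2.25% of all genes were. Besides enzymes, the list includes Pex3, Pex5, Pex19 and Ppara itself. By the series title LKO hepatocytes lack PPARα, so the part of Ppara in these counts, shares and medians is no independent support.

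Of the 7 canalicular transporters tested, 1 rose and 5 fell in LWT, and 1 rose and 3 fell in LKO. Beside this, 38.3% and 40.3% of all genes were called, and the medians of the 7 were -0.48 and -0.28. The gene that rose was Abcb4 (MDR2; probe at chr5:8959108-8959167, plus strand, mm9), the flippase that supplies phosphatidylcholine to bile. Its levels in LWT were 5.07 to 5.69 under vehicle (median 5.26) and 6.04 to 6.81 under CL316243 (median 6.44), without overlap. In LKO they were 4.60 to 4.84 (median 4.70) and 4.42 to 5.58 (median 5.42), with 1 mouse, LKO CL316243 replicate 3, at the lowest value of all 24. Abcb4 rose 2.18-fold in LWT (log2 1.12 ± 0.16, adjusted p = 1.3e-05) and 1.46-fold in LKO (0.55 ± 0.16, adjusted p = 0.0099). Without replicate 3 the change in LKO was 0.72 (adjusted p = 0.00016). The difference between the effects was -0.57 ± 0.23 and was not called (adjusted p = 0.17). The other 2 kept probes of Abcb4 rose in LWT too, by 1.10 and 1.01. In LKO its 3 kept probes gave 0.40 to 0.60, and 2 of them were called in the fit over all kept probes.

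Abcb4 was lower in LKO than in LWT under CL316243, and its uncalled difference under vehicle had the same direction. Under CL316243 the difference was -1.17 ± 0.16 (adjusted p = 1.7e-05), with all 6 LKO mice below all 6 LWT mice. It was -1.81 to -0.77 within single slides. Under vehicle it was -0.59 ± 0.16, again without overlap, and was not called (adjusted p = 0.093). Over all genes, 6.6% did not overlap under CL316243 and 1.82% under vehicle. Without LKO CL316243 replicate 3 the same vehicle difference was called at adjusted p = 0.0093. The 250 bases before the start of Abcb4 lie at chr5:8893471-8893720 of GRCm38.p6 on the plus strand, per RefSeq, and hold no match to the motifs searched.
Abcb4: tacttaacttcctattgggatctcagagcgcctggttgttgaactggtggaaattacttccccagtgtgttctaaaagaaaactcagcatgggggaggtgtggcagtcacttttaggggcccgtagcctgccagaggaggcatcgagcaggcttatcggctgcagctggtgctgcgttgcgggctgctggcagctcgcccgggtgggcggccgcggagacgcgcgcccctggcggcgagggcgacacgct

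Abcg2 (BCRP), an exporter of urate, porphyrins and many drugs, differed between genotypes under CL316243. Its levels were 4.44 to 5.02 (median 4.71) in LWT vehicle and 4.58 to 5.46 (median 4.88) in LWT CL316243. In LKO they were 4.00 to 4.37 (median 4.27) and 3.51 to 4.18 (median 4.03), below LWT without overlap in both treatments. The difference was -0.48 ± 0.13 under vehicle, not called (adjusted p = 0.10), and -0.98 ± 0.13 under CL316243 (adjusted p = 1.3e-05). The fitted CL316243 effects on Abcg2 were 0.22 ± 0.13 in LWT and -0.28 ± 0.13 in LKO, neither of them called (adjusted p = 0.21 and 0.10). Without LWT CL316243 replicate 4 the vehicle difference was -0.48 with adjusted p = 0.046.

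Abcb11 (BSEP; probe at chr2:69076390-69076449, minus strand, mm9), the bile salt export pump and the main force of bile flow, fell in LWT. Its levels there were 5.93 to 6.30 under vehicle (median 6.11) and 5.38 to 5.93 under CL316243 (median 5.61). In LKO they were 5.64 to 6.10 (median 5.98) and 5.28 to 6.01 (median 5.76), and the LKO groups overlapped through most of their range. The change was -0.48 ± 0.12 in LWT (adjusted p = 0.0027) and -0.20 ± 0.12 in LKO (adjusted p = 0.19). Without LKO CL316243 replicate 3 the value in LKO was -0.11 (adjusted p = 0.47). The effects were not shown to differ, with a difference of 0.28 ± 0.17 (adjusted p = 0.40) and a 95% confidence interval from -0.07 to 0.63. The difference between genotypes in Abcb11 was not called under vehicle (-0.19 ± 0.12, adjusted p = 0.79) or under CL316243 (0.09 ± 0.12, adjusted p = 0.68).

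Among the 38 ABC genes whose promoters were searched, only that of Abcb11 held a match to IR1, the inverted repeat to which the bile acid receptor FXR binds (AGGTCA and TGACCT with 1 base between). The 250 bases before its start lie at chr2:69342617-69342866 of GRCm38.p6 on the minus strand, per RefSeq. Capitals mark the matches, at bases -94 to -82 with 2 mismatches and at bases -63 to -51 with 1 mismatch, counted from the transcription start.
Abcb11: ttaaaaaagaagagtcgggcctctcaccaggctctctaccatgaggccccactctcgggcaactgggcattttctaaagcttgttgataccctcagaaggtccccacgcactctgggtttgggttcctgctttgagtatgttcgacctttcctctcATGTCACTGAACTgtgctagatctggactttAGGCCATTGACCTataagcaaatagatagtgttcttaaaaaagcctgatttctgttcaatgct

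Abcg5 and Abcg8, the partners of a heterodimer that secretes cholesterol and plant sterols into bile, fell together in both genotypes. In LWT, Abcg5 lay at 4.44 to 5.25 under vehicle (median 4.95) and 3.55 to 4.75 under CL316243 (median 4.11), and in LKO at 4.08 to 5.02 (median 4.72) and 2.97 to 4.44 (median 3.72). In LWT, Abcg8 lay at 2.45 to 3.57 (median 3.18) and 0.98 to 2.77 (median 1.88), and in LKO at 2.08 to 3.21 (median 2.76) and 0.92 to 1.88 (median 1.43). Of these 4 pairs of vehicle and CL316243 groups, only Abcg8 in LKO did not overlap. Abcg5 fell by 0.76 ± 0.22 in LWT (adjusted p = 0.0087) and by 0.90 ± 0.22 in LKO (adjusted p = 0.0023). Abcg8 fell by 1.33 ± 0.25 and by 1.29 ± 0.25 (adjusted p = 0.00019 and 0.00026). The difference between the effects was -0.14 for Abcg5 (95% confidence interval -0.79 to 0.50) and 0.03 for Abcg8 (-0.69 to 0.76), and neither was called. In LKO against LWT, Abcg5 was -0.32 ± 0.22 under vehicle and -0.46 ± 0.22 under CL316243, neither of them called (adjusted p = 0.84 and 0.17). The second was called at -0.61 (adjusted p = 0.047) without LKO CL316243 replicate 3.

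These neighbours are transcribed away from each other, and the bases between a pair of their starts are shown because both genes fell together. A second RefSeq start of Abcg8, whose 250 preceding bases lie at chr17:84676052-84676301, is not in this pair. The stretch of 109 bases lies at chr17:84683012-84683120 of GRCm38.p6, per RefSeq. It is printed on the plus strand, which is that of Abcg8, and Abcg5 starts to its left on the minus strand. No motif searched matched there.
Abcg5-Abcg8: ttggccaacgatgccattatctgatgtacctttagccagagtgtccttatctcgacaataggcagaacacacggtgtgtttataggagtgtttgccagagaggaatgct

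Abcc2 (MRP2), which secretes bilirubin glucuronide and other conjugates into bile, fell by 0.28 ± 0.10 in LWT (adjusted p = 0.026) and by 0.44 ± 0.10 in LKO (adjusted p = 0.0012). The LWT groups overlapped, at 3.52 to 3.74 and 2.96 to 3.56, and the LKO groups did not, at 3.45 to 3.89 and 2.94 to 3.35. The call in LWT was lost, at adjusted p values of 0.053 to 0.081, without CL316243 replicate 3 or 6 or vehicle replicate 3 or 5. Abcb1a (MDR3), a P-glycoprotein that exports drugs, had fitted changes of -0.65 ± 0.23 in LWT (called, adjusted p = 0.026) and -0.25 ± 0.23 in LKO (adjusted p = 0.40). Its call in LWT was lost without CL316243 replicate 1 or 3 or vehicle replicate 4, at adjusted p values of 0.053 to 0.080.

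Abcb1b, the second mouse P-glycoprotein gene, did not respond to CL316243 at a called level but differed between genotypes under CL316243. Its levels were -3.04 to -1.93 (median -2.54) and -2.86 to -1.99 (median -2.43) in LWT vehicle and CL316243, and -2.19 to -1.48 (median -1.94) and -2.40 to -1.31 (median -1.65) in LKO, with overlap. LKO was higher by 0.67 ± 0.19 under CL316243 (adjusted p = 0.019) and by the same 0.67 ± 0.19 under vehicle, which was not called (adjusted p = 0.12). Without LWT vehicle replicate 3 the vehicle difference was 0.79 (adjusted p = 0.034). Within slide 2 the difference under CL316243 was -0.13, the opposite direction, and with only the groups compared in the fit it was not called (adjusted p = 0.050). With normexp the Abcb1b difference under CL316243 was 0.44, still called. Abcb1a and Abcb1b are related copies, and how much of each probe's signal comes from the other was not tested.

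**Figure D3:**
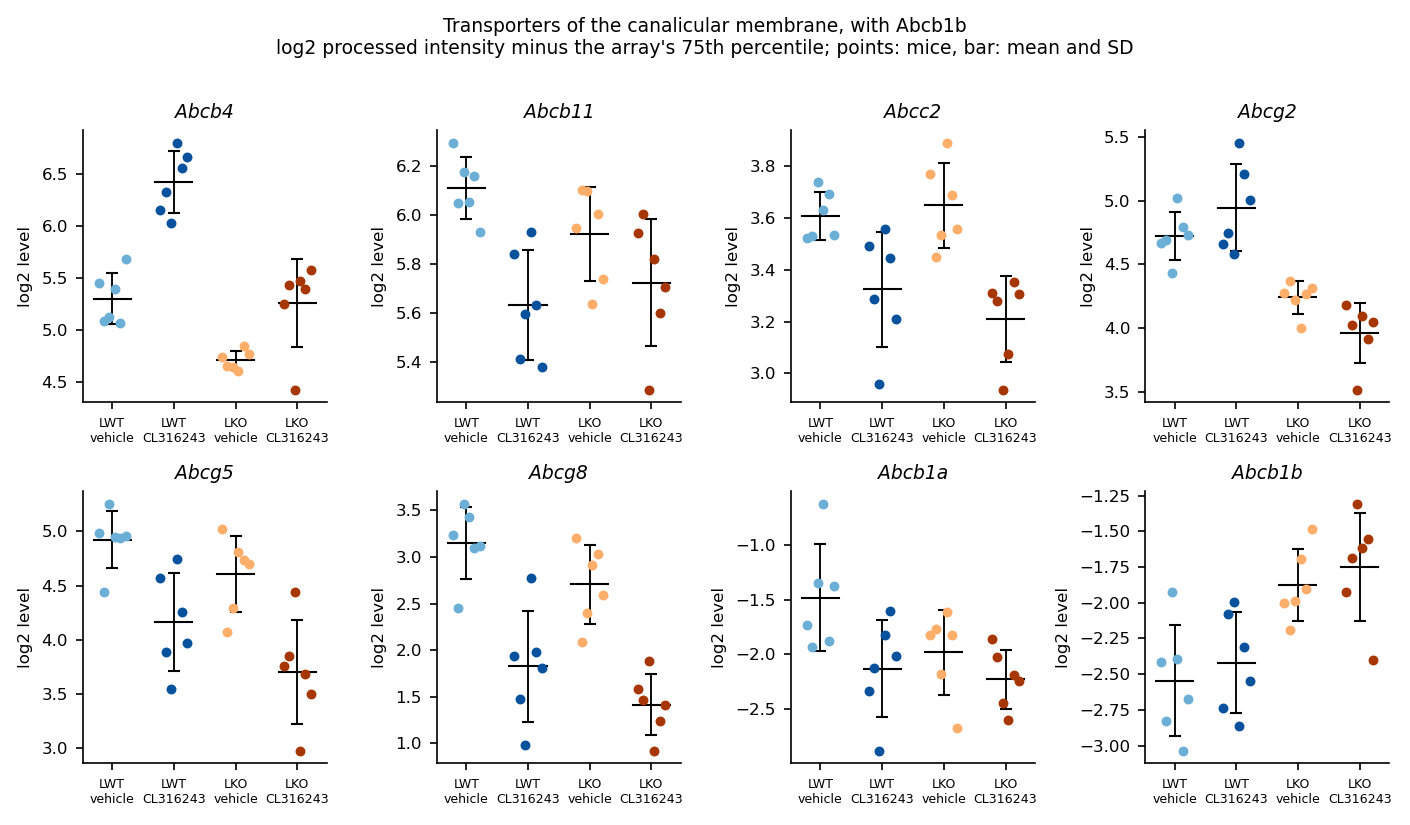
Log2 level (y axis) of 7 canalicular transporters and Abcb1b in the 4 groups (x axis), 1 point per mouse with the mean and SD of 6. Abcb4 rises with CL316243 in both genotypes, to a median of 6.44 in LWT and 5.42 in LKO, Abcg5 and Abcg8 fall in both, and Abcg2 is lower in both LKO columns.

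Of 19 tested genes for bile acid transport, synthesis and their regulators that are not ABC genes, 2 rose and 6 fell in LWT and 3 rose and 7 fell in LKO. That is 42.1% and 52.6% of the list, against 38.3% and 40.3% of all genes. The medians of the 19 were -0.29 and -0.22. Cyp7a1, the rate-limiting enzyme of bile acid synthesis, had fitted changes of -8.09 and -7.78, and was well above background on 2 of 6 CL316243 arrays in each genotype, so these are no measured folds. Nr0b2 (SHP), a repressor induced by FXR, fell by 1.36 in LWT, while its value of -0.91 in LKO was not called. No gene of this list was called in the interaction, where 5.42% of all genes were.

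Abca1, which loads cellular cholesterol onto apolipoprotein A-I to form HDL, varied widely between mice under CL316243. Its levels were 3.15 to 3.79 (median 3.59) in LWT vehicle and 3.36 to 3.69 (median 3.50) in LKO vehicle. Under CL316243 they were 3.15 to 5.04 (median 4.42) in LWT and 3.56 to 5.68 (median 4.04) in LKO. The mean changes of 0.70 ± 0.30 and 0.73 ± 0.30 were not called (limma adjusted p = 0.075 and 0.061, n = 6 per group). Leaving out single arrays brought the change past the threshold in LWT without LWT CL316243 replicate 4 (0.92, adjusted p = 0.013) or LKO CL316243 replicate 3 (0.70, adjusted p = 0.024), and in LKO without any of 4 arrays (adjusted p 0.031 to 0.046). Those 4 were LKO CL316243 replicates 1, 4 and 6 and LWT CL316243 replicate 4. The difference between the effects on Abca1 was 0.03 with a 95% confidence interval from -0.87 to 0.92, and genotypes were not called different under either treatment. Without LKO CL316243 replicate 3, the highest mouse at 5.68, the change in LKO was 0.44 (adjusted p = 0.19). A second kept probe gave 0.61 and 0.84, neither of them called.

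Under CL316243 Abca1 was compared with the summed level of neutrophil markers, whose members did not move alike. In LWT S100a8 and S100a9 rose, by 1.47 and 1.43, Camp and Ly6g fell, by 0.41 and 0.39, and Mpo was not called. In LKO only S100a8 and S100a9 were called, and rose by 2.30 and 2.25. The sum is the log2 of the added linear levels, in which the brightest genes weigh most. It was taken over 5 neutrophil genes (S100a8, S100a9, Mpo, Ly6g and Camp, with Ngp of the same list below the filter). The sum was 1.05 to 2.42 (LWT) and 1.16 to 1.76 (LKO) under vehicle, and 1.08 to 3.69 (LWT) and 1.85 to 5.45 (LKO) under CL316243. In LWT CL316243, Abca1 and this sum ranked the 6 mice in the same order (Pearson r = 0.99, exact permutation p = 0.0014, adjusted over 4 groups 0.0056; Spearman rho = 1.0, exact p = 0.0028, adjusted 0.011). In LKO CL316243 the correlation was r = 0.97 (exact permutation p = 0.0056, adjusted 0.011) with rho = 0.83 (exact p = 0.058, adjusted 0.12). In the vehicle groups it was r = 0.25 and 0.12 (exact permutation p = 0.61 and 0.84, adjusted 0.81 and 0.84; rho = 0.26 and 0.09, exact p = 0.66 and 0.92, adjusted 0.88 and 0.92). Without the 2 mice farthest from the median of the sum, r was 0.94 and 0.85 in the CL316243 groups and 0.16 and -0.64 in the vehicle groups, over 4 mice each. This relation was looked for after the values had been seen, so its permutation p-values do not measure chance. In LKO CL316243, replicate 3 was the highest mouse in both, at 5.68 for Abca1 and 5.45 for the sum. It was also the array with the lowest mean correlation with its group, 0.9717. Of all 21331 genes, 0.127% followed the sum at least as closely, in either direction, in LWT CL316243 and 2.05% in LKO CL316243. The same kind of sum over 5 cholangiocyte markers was also higher under CL316243, with medians of 2.40 and 2.98 in LWT and 2.05 and 3.40 in LKO. The part of either cell type in the level of Abca1 was not tested.

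Abcg1, which exports cholesterol to mature HDL, had fitted changes of -0.20 ± 0.12 in LWT and -0.08 ± 0.12 in LKO, of which neither was called. Among 15 tested genes of sterol efflux and the oxysterol receptor LXR outside the superfamily, 2 rose and 2 fell in LWT and 3 rose and 5 fell in LKO. That is 26.7% and 53.3% of the list, against 38.3% and 40.3% of all genes. The medians of the 15 were 0.10 and -0.03. The largest change was that of Srebf1, a regulator of lipid synthesis that LXR induces, which fell by 1.97 in LWT and by 3.21 in LKO.

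Of 9 other sterol and lipid transporters, 6 fell and none rose in LWT, and 3 fell and none rose in LKO. Beside this, 38.3% and 40.3% of all genes were called, and the medians of the 9 were -0.45 and -0.16. Abcg4, a sterol exporter known mainly from brain, fell by 1.09 ± 0.18 in LWT (adjusted p = 5.3e-05), from 0.34 to 1.36 (median 0.54) under vehicle to -0.59 to 0.15 (median -0.44), without overlap. In LKO it lay at -0.16 to 0.50 (median 0.17) and -0.42 to 0.32 (median -0.04), a change of -0.25 ± 0.18 that was not called (adjusted p = 0.28). The effects differed by 0.84 ± 0.25, which was not called either (adjusted p = 0.054). It was called without any 1 of 6 arrays, at adjusted p values of 0.025 to 0.045 and differences of 0.90 to 0.94. These were LWT vehicle replicates 2, 3 and 5, LWT CL316243 replicate 4, LKO vehicle replicate 6 and LKO CL316243 replicate 3.

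Abca8a, a member of a lipid transporter cluster on chromosome 11, fell in both genotypes, by 0.96 ± 0.17 and 0.88 ± 0.17 (adjusted p = 9.3e-05 and 0.00023). Abca9 of the same cluster fell by 0.79 ± 0.18 and 0.77 ± 0.18 (adjusted p = 0.0011 and 0.0013). Abca2, a lysosomal lipid transporter, fell by 0.65 ± 0.15 in LWT (adjusted p = 0.0016) and by 0.38 ± 0.15 in LKO, where its adjusted p of 0.049 passed 0.05 without 17 of the 24 arrays, singly. In LWT the vehicle and CL316243 mice did not overlap for these 3 genes, where 20.4% of all genes did not. Members of this cluster are close copies, so the share of each in a probe's signal is uncertain.

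Abca8b showed a difference between its probes. The brightest probe fell by 0.45 ± 0.17 in LWT (adjusted p = 0.040), and its change in LKO was 0.07 ± 0.17, with an interaction of 0.52 that was not called (adjusted p = 0.25). The call in LWT was lost without any of 8 arrays, singly. A dimmer probe, designed on another transcript and lying at chr11:109823091-109823150 of mm9, fell by 1.10 in LWT (adjusted p = 0.00052) and gave 0.27 in LKO (adjusted p = 0.36), with an interaction of 1.37 (limma adjusted p = 0.011 over all kept probes). The other probe gave -0.19 and 0.09. The probes differ in the transcript they were designed on, and which transcript each reports in these livers was not tested.

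Of 6 sinusoidal and lateral exporters, 1 rose and 1 fell in LWT and 2 rose and 1 fell in LKO. These counts are near the shares over all genes, 38.3% and 40.3%, and the medians of the 6 were -0.12 and -0.13. Abcc6, whose activity leads to release of ATP from hepatocytes, fell by 0.60 ± 0.09 in LWT (adjusted p = 2.5e-05) and by 0.32 ± 0.09 in LKO (adjusted p = 0.0076). Its levels were 4.45 to 4.64 and 3.59 to 4.30 in LWT and 4.45 to 4.68 and 3.98 to 4.38 in LKO, without overlap between treatments. Abcc4 (MRP4), an exporter of bile acids and cyclic nucleotides to blood, rose by 0.63 ± 0.20 in LKO (adjusted p = 0.013). In LWT its change of 0.38 ± 0.20 was not called (adjusted p = 0.13), and without vehicle replicate 3 it was 0.52 (adjusted p = 0.028). Abcc5 (MRP5), an exporter of cyclic nucleotides and other organic anions, rose by 0.23 ± 0.08 in LWT (adjusted p = 0.023) and by 0.46 ± 0.08 in LKO (adjusted p = 0.00010). The call of Abcc5 in LWT was lost without vehicle replicate 1, 5 or 6 or CL316243 replicate 3 or 5, at adjusted p values of 0.050 to 0.060. In a fit over all kept probes, its 5 probes gave -0.14 to 0.54 in LWT, with 2 called higher. In LKO they gave 0.01 to 0.59, with 3 called higher. Abcc3 (MRP3), a basolateral exporter of glucuronides, was bright at 3.64 to 5.20 over all mice and was not called (-0.24 ± 0.17 and -0.40 ± 0.17). The channel regulator Abcc9 (SUR2), a subunit of ATP-sensitive potassium channels, rose by 0.33 ± 0.08 in LKO (adjusted p = 0.0035). Its value in LWT, 0.09 ± 0.08, was not called.

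Of 4 mitochondrial members, 2 fell in LWT and 1 fell in LKO, where 38.3% and 40.3% of all genes were called. Abcb10, which serves haem synthesis, fell by 1.22 ± 0.18 in LWT (adjusted p = 1.9e-05), from 1.91 to 2.55 (median 2.34) to 0.60 to 2.08 (median 0.94). One mouse, CL316243 replicate 5 at 2.08, lay among the vehicle values, and the next highest was at 1.21. In LKO it lay at 2.03 to 2.47 (median 2.17) and 1.54 to 2.12 (median 1.65), a change of -0.41 ± 0.18 that was not called (adjusted p = 0.078). The effects differed by 0.81 ± 0.26 (adjusted p = 0.074, not called). Without LWT CL316243 replicate 5 that difference was 1.01 and was called (adjusted p = 0.0023), and leaving out LWT vehicle replicate 6 gave 0.89 (called, adjusted p = 0.049). Under CL316243 Abcb10 was higher in LKO by 0.68 ± 0.18 (adjusted p = 0.012), and this was not called with only the groups compared in the fit (adjusted p = 0.079).

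Abcb6, a porphyrin transporter, fell by 0.49 ± 0.08 in LWT (adjusted p = 3.1e-05) and by 0.28 ± 0.08 in LKO (adjusted p = 0.0058). Abcb8, another transporter of the inner mitochondrial membrane, had fitted changes of -0.02 in LWT and 0.04 in LKO, neither of them called. Of 15 tested haem and iron-sulfur genes outside the superfamily, 1 rose and 7 fell in LWT and 1 rose and 10 fell in LKO. Beside this, 38.3% and 40.3% of all genes were called, and the medians of the 15 were -0.10 and -0.37. Slc25a37 (mitoferrin), the importer of mitochondrial iron, fell by 0.86 and 1.03. Hmox1, which breaks haem down, had changes of 0.83 in LWT, not called, and 2.46 in LKO.

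Abcb9 (TAPL), a lysosomal peptide transporter, fell by 1.20 ± 0.20 in LWT (adjusted p = 6.1e-05) and by 1.31 ± 0.21 in LKO (adjusted p = 4.4e-05). Its levels were 0.05 to 0.51 and -1.62 to -0.46 in LWT, and -0.21 to 0.13 and -2.19 to -0.82 in LKO, without overlap; 1 value of LKO CL316243 was an outlier spot and is missing. Abcd4, which moves cobalamin out of lysosomes, fell by 0.52 ± 0.19 in LWT (adjusted p = 0.039) and was at -0.48 ± 0.19 in LKO, not called (adjusted p = 0.051). Both values lie at the threshold: the first lost its call without any of 9 arrays and the second gained one without any of 7. Abcg3, a rodent relative of Abcg2, had changes of -1.27 ± 0.47 and -1.39 ± 0.47 (adjusted p = 0.037 and 0.022) with a range from -6.28 to -1.68 in LKO CL316243, and its call in LWT was lost without any of 7 arrays. Without LKO CL316243 replicate 3 the change of Abcg3 in LKO was -0.86 (adjusted p = 0.045), and with only the groups compared in the fit it was not called (adjusted p = 0.086). With normexp the changes were -0.67 and -0.53, and with the authors' deposited table -0.92 and -0.78, all called. Its call in LWT was also lost with quantile normalization (adjusted p = 0.067) and without the filter on dim probes (adjusted p = 0.069).

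Of the 4 members that do not transport, 2 rose in LWT and none was called in LKO, where 38.3% and 40.3% of all genes were called. Abcf1, which acts in translation initiation, rose by 0.45 ± 0.12 in LWT (adjusted p = 0.0054), with an uncalled 0.23 ± 0.12 in LKO (adjusted p = 0.14). In the fit over all kept probes, the 5 probes of Abcf1 gave 0.27 to 0.54 in LWT, with 2 called. In LKO they gave -0.29 to 0.26, with none called. Abce1, which splits ribosomes after termination, rose by 0.23 ± 0.08 in LWT (adjusted p = 0.028) and was at 0.00 ± 0.08 in LKO. The call of Abce1 was lost without LWT vehicle replicate 2 or LWT CL316243 replicate 1, 2 or 3, at adjusted p values of 0.051 to 0.082. Its 2 kept probes gave 0.23 and 0.28 in LWT, and 1 of them was called in the fit over all kept probes. Abcf3 had the smallest change of the group in LWT, at -0.02 ± 0.10.

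**Figure D4:**
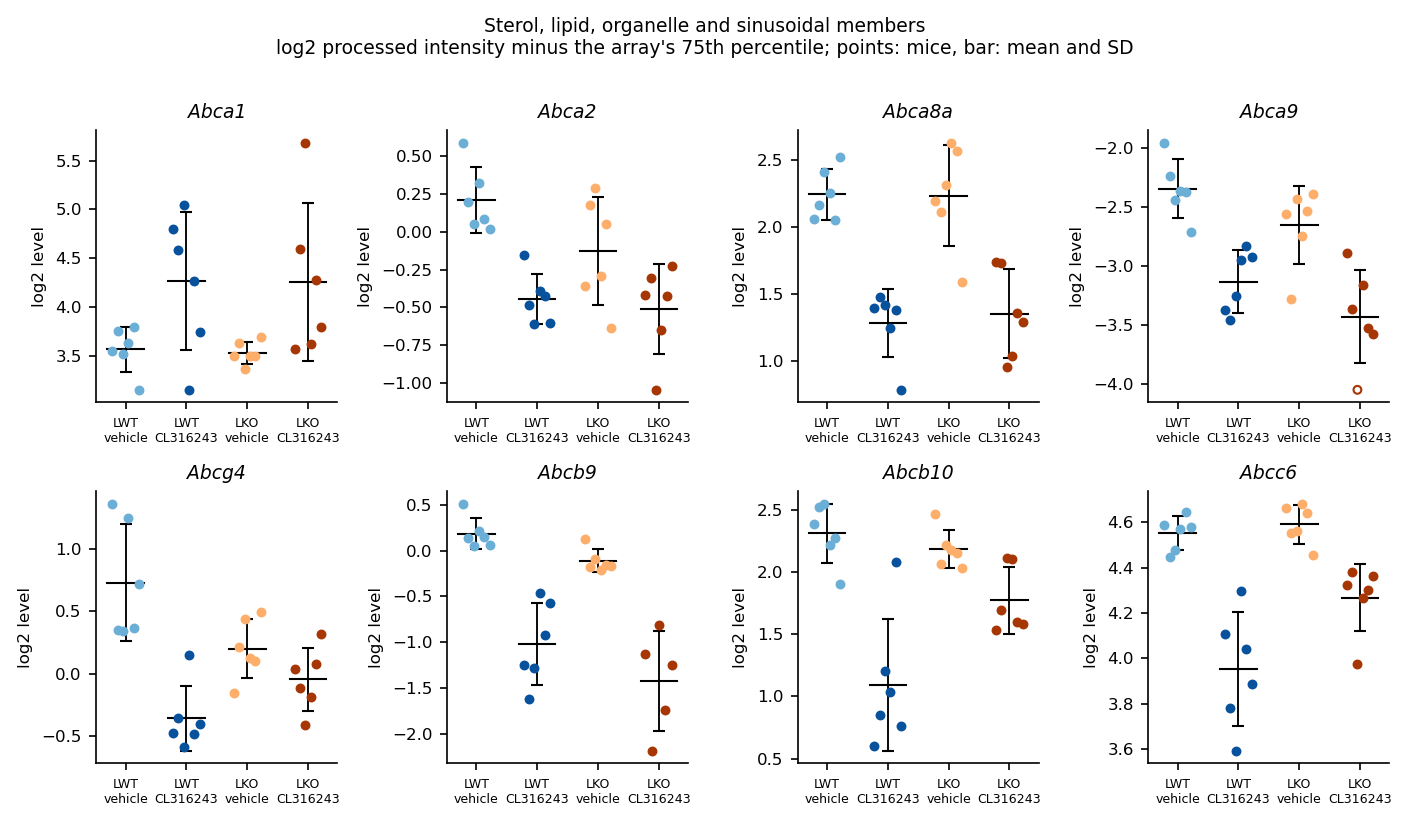
Log2 level (y axis) of 8 members with roles in sterols, lipids, lysosomes, mitochondria and sinusoidal export in the 4 groups (x axis), 1 point per mouse with the mean and SD of 6 (5 for Abcb9 in LKO CL316243); the open point was not well above background. Abca1 spreads from 3.15 to 5.04 and from 3.56 to 5.68 under CL316243, Abca8a and Abcb9 fall in both genotypes, and Abcb10 is lowest in LWT CL316243 except for 1 mouse at 2.08.

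Between genotypes, 1 ABC gene, Abcd2, was called under vehicle and 8 were called under CL316243, 4 higher and 4 lower in LKO. Over all genes 16% were called under CL316243, 8.08% higher and 7.89% lower. The lower ones were Abcd2, Abcd3 (-1.74 ± 0.12, adjusted p = 1.9e-10), Abcb4 and Abcg2, and in each the 6 LKO mice lay below the 6 LWT mice. For Abcd2, which passed the filter through the LWT groups alone, that separation is no independent support. Its lowest LWT mouse was at -4.626 and its highest LKO mouse at -4.633, with 0 of 6 LKO arrays well above background. Over all genes 6.6% did not overlap under CL316243, and 1.82% under vehicle, where Abcd2, Abcb4 and Abcg2 did not. Abcd3 under vehicle was -0.41 ± 0.12 and was not called (adjusted p = 0.11), and leaving out replicate 3 of LWT vehicle brought it past the threshold (-0.49, adjusted p = 0.028). The higher ones were Abcb10, Abcb1b, Abca6 (0.38 ± 0.12, adjusted p = 0.036) and Abcc6 (0.32 ± 0.09, adjusted p = 0.021), and all 4 had overlapping groups. Abca6, a lipid transporter of the chromosome 11 cluster, lost its call without any of 6 arrays. Abcc6 lost its call without LWT CL316243 replicate 2 or 3, at adjusted p values of 0.052 to 0.054. Abca6 and Abcc6 had 2 kept probes each, of which 1 was called higher in the fit over all kept probes. Both comparisons of genotypes use the same mice as the CL316243 effects, so the values are not separate evidence.

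**Figure D5:**
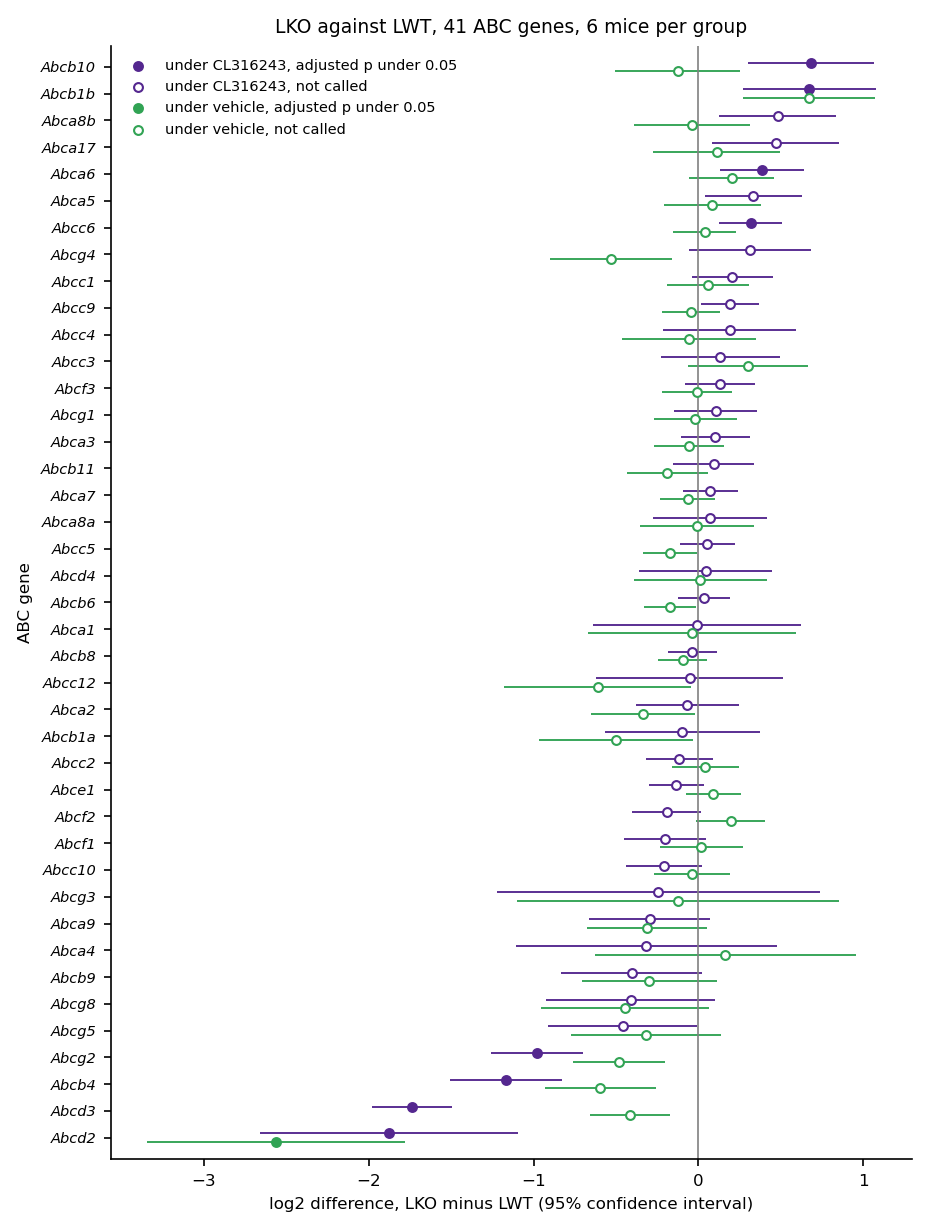
Log2 difference between LKO and LWT (x axis) for 41 of the 43 ABC genes (y axis, ordered by the difference under CL316243), under CL316243 (purple) and vehicle (green), 6 mice per group. Points are fitted differences, lines are 95% confidence intervals, and filled points are called; the 4 lowest genes are Abcd2, Abcd3, Abcb4 and Abcg2, and under vehicle only Abcd2 is filled.

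In all, 15 of the 43 genes were called in none of the 5 comparisons, and the share of all genes called in none was not computed. The 15 included Abca1, Abca3, Abca4, Abca5, Abca7, Abca17, Abcb8, Abcc1, Abcc3, Abcc10, Abcc12, Abcf2, Abcf3 and Abcg1. Well above background on all 24 arrays were 38 of the 43. The other 5 were Abca4 (18 arrays), Abca9 (23), Abcc12 (8), Abcd2 (12) and Abcg3 (22), and Abcc12 passed the filter through LWT vehicle alone. The 7 genes that did not pass were Abca12, Abca13, Abca14, Abca15, Abca16, Abcb5 and Abcc8, whose 19 probes were well above background on at most 3 of 6 arrays of any group. Abcc8 (SUR1), the sulfonylurea receptor of the pancreatic beta cell, was not well above background on any array. Of 3 further ABC genes that carry other names, Tap2 fell by 0.27 in LWT while Tap1 and Cftr were not called in either genotype. Among 10 tested xenobiotic genes, which include regulators of several exporters, 1 rose and 1 fell in LWT and 4 rose and 3 fell in LKO. Beside this, 38.3% and 40.3% of all genes were called, and the medians of the 10 were -0.05 and -0.03.

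The promoters of 38 of the 50 genes were in the RefSeq table (45 windows of 250 bases before to 50 after a start, GRCm38.p6). Both strands were searched for repeats of AGGTCA, each exactly and with at most 2 mismatches. They were DR1 (2 copies with 1 base between, bound by PPARα with RXR), DR4 (2 copies with 4 bases between, bound by LXR with RXR) and IR1. No ABC window held DR1 at up to 2 mismatches, against 3.86% of all 32851 windows. One window, of Abcc10, held DR4 (2.22% against 3.02%), and the window of Abcb11 held IR1 (2.22% against 1.14%). The single AGGTCA, which overlaps with each of these repeats, was in 7 windows (15.6% against 16.3%), those of Abcb6, Abcb11, Abcc2, Abcc10 and Abcg2. Abcd3 and Abcb4, the members that rose most in LWT, held none of these letters in the windows of the table. Abca6, Abcb8, Abcc1, Abcc3, Abcc6, Abcc8, Abcd2, Abcd4, Abcg1 and Abcg4 were among those not matched. A match is a description of letters, and no binding was measured.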

How the data were processed

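Liver RNA of 24 mice was labelled with Cy3 and hybridised to 1-colour Agilent arrays. The deposited scanner tables hold intensity per spot, written by Feature Extraction (Agilent, version 10.10.1.1) as the file headers state; per the file headers the processed intensity is background-subtracted and not normalized between arrays. The authors' deposited series table holds log2 values; differences between them and the quantile-normalized log2 median signal had a median of 0.000254, so it was used as an alternative. An aligner or caller does not apply. The authors' processing notes also name limma, without a version, and further steps by the authors are not given in the sources used here.

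From the processed intensity, log2 minus the 75th percentile of each array's non-control spots was computed, after removal of outlier spots. That percentile was chosen over the one taken after averaging spots when values had been seen, and the latter was kept as an alternative. A probe was kept when 4 or more of the 6 arrays of any group had it well above background, and the brightest kept probe stood for a gene (17 ABC genes had more than 1). limma 3.58.1 (R 4.3.3, data.table version 1.17.8) was fitted to all 21331 genes and 4 groups, and p-values were adjusted over all genes (Benjamini-Hochberg, 0.05). The scripts were tested on simulated data. Median SE was 0.13, and the number of arrays limits the precision.

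Alternatives were the background correction, scaling, filter, probe choice, slide, row, replicate block, threshold, samples in the fit, the authors' values and leaving out each array. Given with values were Abca1, Abcb11, Abcd2 and Abcg5, members called in the interaction or under vehicle, the 5 largest called changes in each direction per comparison, and examples by role. Members and lists were chosen with earlier results of these data known. The labels do not say what the replicate numbers share, and the main fit did not pair mice by number. Mice are separate animals per the labels. Promoter letters are from RefSeq (GRCm38.p6), and array positions are on mm9. Results of 2 of the 43 ABC genes are not reported here by gene, and both are counted in the totals except where 41 genes are named.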

Additional observations from a re-analysis of the deposited data

Results flagged for a closer look

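The effect of CL316243 differed between genotypes for Abcd3, by -1.32 on the log2 scale, by the interaction of the limma fit.

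In 18 of 163 groups of 6 mice (41 genes in 4 groups, without the group of Abcb9 that lacks a value), 1 mouse stood apart from the others by Dixon's criterion, which chance meets in about 1 in 20 groups. LKO CL316243 replicate 3 was that mouse in 4 groups, with log2 levels of 4.42 for Abcb4 (nearest other mouse 5.25), -1.06 for Abcc1 (-1.68), -1.25 for Abcc5 (-0.93) and 3.98 for Abcc6 (4.27). LWT CL316243 replicate 3 was it in 2, at 1.09 for Abca6 (1.38) and 7.57 for Abcd3 (7.92). LWT vehicle replicate 3 was it in 3, at -1.25 for Abcc4 (-1.89), -0.97 for Abcc5 (-1.21) and 3.39 for Abcf1 (3.25). LWT vehicle replicate 1 was at 1.40 for Abca7 (1.10) and 0.51 for Abcb9 (0.21). The others were Abca4 at -2.14 in LKO vehicle replicate 6 (-4.25), Abca8a at 0.78 in LWT CL316243 replicate 6 (1.24) and Abca8b at 2.89 in LKO CL316243 replicate 1 (2.12). Abcc3 was at 4.51 in LKO vehicle replicate 3 (4.96), Abcb6 at 2.26 in LKO vehicle replicate 2 (2.45), Abcb9 at 0.13 in LKO vehicle replicate 1 (-0.09) and Abcg4 at 0.15 in LWT CL316243 replicate 4 (-0.36).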

How the results depend on the processing

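The number of ABC genes called moved by over 1.5 times as follows; the cause was not tested except where fewer arrays or a stricter rule make it. For the CL316243 effect in LWT (24 genes) it was 15 without the filter on dim probes, 15 with a change of at least 1.5-fold and 0, 14 and 10 within slides 1, 2 and 3, and for that in LKO (15 genes) 8 with 1.5-fold and 5, 2 and 6 within slides. For the interaction (2 genes) it was 1 without the filter, with slide and row as terms, with the replicate block and with 1.5-fold, and 0, 0 and 0 within slides. Between genotypes under vehicle (1 gene) it was 3 with the replicate block, 3 with only the groups compared, and 0, 0 and 0 within slides, and under CL316243 (8 genes) 4 with only the groups compared and 4, 3 and 2 within slides. Leaving out single arrays gave 16 to 27, 14 to 18, 1 to 3, 1 to 3 and 6 to 12 genes in the same order. Abcb1b under CL316243 turned to -0.13 within slide 2. Over the named genes and the other alternatives, 574 values stayed on their side of the threshold (4 of them uncalled with the opposite sign), 28 lost the call and 4 gained one. The percentile taken after averaging spots, chosen after seeing the data, moved no count by over 1.5 times. Same-numbered mice correlated over 0.1 in 9 of 36 pairs (median 0.0522, highest 0.421). In 22 of 72 comparisons the mouse of the same number was the best match among the 6 of another group. What the numbers share is not given, and these values do not settle it. Genes not well above background have only a bound.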
